A study of Mus musculus with 24 samples.

Results

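The IL-6 and STAT3 acute phase axis is described here in mouse liver through 10 genes chosen by symbol: the receptor genes Il6ra, Il6st and Il1rap, the transcription factor genes Stat3, Cebpb and Cebpd, the feedback inhibitor gene Socs3, and the genes of the secreted proteins Serpina3n, Lbp and Hp. These genes, and the gene lists further below, were chosen with earlier results of these data known. Calls among them are therefore not independent support. All 10 were among the 13686 genes of the count table, and all 10 passed the filter on low counts that kept 11971 genes for testing. Liver messenger RNA had been measured by QuantSeq, a 3′ tag method that counts tags near the 3′ end of transcripts, so a count reflects transcript number rather than length. Every animal was a male wild-type C57BL/6 mouse, an inbred laboratory strain, sampled after 6 weeks on its diet. The groups were a cottonseed oil-enriched diet (CSO, 6 libraries), a safflower oil-enriched diet (SFO, 5 libraries), an olive oil-enriched diet (OO, 6 libraries) and chow (6 libraries). A further SFO sample is named in the labels, was set aside by the submitters as an extreme outlier with possible contamination, and was not analysed here. The age of the mice and the composition of the diets beyond the oil are not given in the sources used here, and each comparison is between whole diets. The labels call these separate samples and say no more, so a p-value here gauges only sample-to-sample spread, part of which may be technical.

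Interleukin-6 signals to hepatocytes by binding its receptor chain, encoded by Il6ra, which then recruits the shared signalling chain gp130, encoded by Il6st. Janus kinases bound to gp130 phosphorylate STAT3, which enters the nucleus and, with factors of the C/EBP family, raises transcription of plasma proteins of the acute phase response, while SOCS3, itself a STAT3 target, shuts the receptor complex down. Interleukin-1, whose receptor needs the accessory chain encoded by Il1rap, acts on many of the same liver genes, and in the mouse haptoglobin, serum amyloid A and Serpina3n are standard readouts of this response.

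Library totals ran from 5428649 to 14930305 counts. At an equal depth of 5000000 counts, 12025 ± 401 genes were detected in CSO libraries, 11644 ± 310 in SFO libraries (n = 5), 10926 ± 417 in OO libraries and 11964 ± 93.6 in chow libraries (SD, n = 6 for the others). The hepatocyte markers, 6 of 6 measured, summed to between 88290 and 156500 CPM (tag counts scaled to a common library total with TMM factors) in every library. Markers of macrophages and Kupffer cells, 10 of 10 measured, summed to 85.0 to 212.7 CPM in CSO, 119.2 to 312.2 CPM in SFO, 106.5 to 376.4 CPM in OO and 112.7 to 318.4 CPM in chow. Neutrophil markers, 3 of 8 measured, reached at most 22.96 CPM in any library. Skeletal muscle transcripts, 8 of 8 markers measured, stood out in 4 libraries, chow 3, chow 4, chow 5 and CSO 1. Their sum reached 1130 CPM in CSO and 2578 CPM in chow, against at most 60.3 CPM in SFO and 15.6 CPM in OO. A setting without these 4 libraries, which leaves 3 chow libraries, was added once values per library were known. It is given beside the results against chow, and of CSO against OO, whose call it ends. In whole-liver RNA, fewer cells of a type and less RNA per cell cannot be told apart.

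SFO livers differed from chow in 3 of the 10 genes, all higher, and 0.493% of all tested genes were called higher in that comparison (edgeR's quasi-likelihood test, Benjamini-Hochberg adjusted p under 0.05 over 11971 genes). The 3 were Serpina3n, Hp and Stat3. OO livers had 2 of the 10 genes higher than chow, Serpina3n and Hp, where 1.72% of all genes were called higher, and CSO livers had 1, Serpina3n, where 0.209% were. None of the 10 was called lower against chow by this test, where 0.342% of all genes were called lower in SFO, 0.919% in OO and 0.2% in CSO. DESeq2 called Il6ra lower in OO. The median log2 fold change over the 10 genes was 0.27 for CSO, 0.76 for SFO and 0.26 for OO against chow, beside -0.02, 0.01 and 0.07 over all tested genes. These comparisons share the same 6 chow libraries.

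Between the oils, CSO livers were lower than SFO livers in 2 of the 10 genes, Lbp and Serpina3n, where 0.209% of all genes were called lower. SFO livers were higher than OO livers in 1, Serpina3n, where 0.267% of all genes were called higher. For CSO against OO edgeR called 0 of the 10, where 1.09% of all genes were called in either direction. At an unadjusted p under 0.05, 3 of the 10 passed in that comparison, and DESeq2 and limma voom each called 1, Il6ra. The median log2 fold change over the 10 genes was -0.55 for CSO against SFO, 0.01 for CSO against OO and 0.66 for SFO against OO, beside -0.03, -0.08 and -0.04 over all tested genes. Where counts at an unadjusted p under 0.05 are given, they stand beside a share over all tested genes of 5.32% for CSO, 7.74% for SFO and 16.1% for OO against chow, 7.69% for CSO against SFO, 14.7% for CSO against OO and 15.3% for SFO against OO. DESeq2 called 4.52%, 1.57%, 5.74%, 3.64%, 3.46% and 3.68% of all genes it gave an adjusted p in these 6 comparisons, which was 2456 genes for CSO against chow, 3848 for CSO against SFO and 11945 in the others. The shares of all genes called by limma voom were 1.72%, 1.02%, 0.969%, 1.06%, 0.952% and 0.0752% in the same order.

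**Figure D1:**
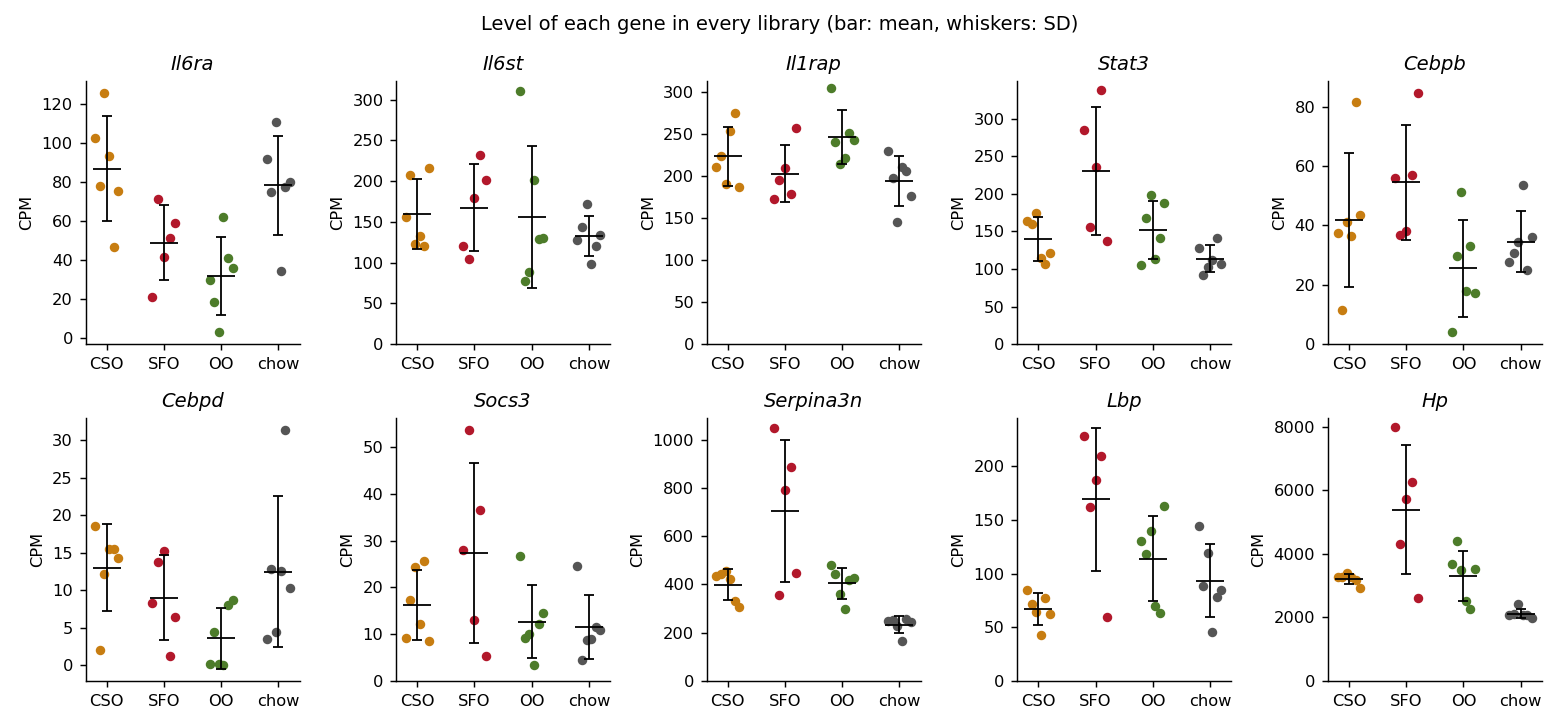
CPM of each of the 10 genes in every library (1 panel a gene, 1 point a library), with the mean as a bar and the SD as whiskers, for CSO (n = 6), SFO (n = 5), OO (n = 6) and chow (n = 6). For Serpina3n every library of each oil diet lies above the highest chow library, at 258.2 CPM, and 3 of the 5 SFO libraries lie above every other library.

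Il6ra, the ligand-binding chain of the interleukin-6 receptor, was at 46.6 to 125.7 CPM in CSO (median 85.5) and at 20.7, 71.4, 41.6, 51.0 and 59.1 CPM in SFO 1, 2, 3, 5 and 6. OO libraries ran from 2.77 to 62.2 CPM (median 32.7) and chow libraries from 34.2 to 111.0 CPM (median 78.6). All 6 OO and all 5 SFO libraries were below the chow mean, and the ranges overlapped, with OO 3 lowest of all at 20 counts. OO 3 also had the fewest genes detected at equal depth, 10270, and the part of this in its gene levels was not tested. The log2 fold change of OO over chow was -1.30 ± 0.40 (SE), which missed the threshold at an adjusted p of 0.0689. In the authors' deposited table the same comparison gave -1.32 with an adjusted p of 0.0268. Without OO 4, the highest OO library, the fold change was -1.62 (adjusted p = 0.0267). CSO averaged 86.8 ± 26.9 CPM and OO 31.6 ± 20.3 CPM (SD, n = 6 each), with 5 of 6 CSO libraries above every OO library. That difference, 1.45 ± 0.40 on the log2 scale, had an adjusted p of 0.0606, and it passed without OO 3 (1.21, adjusted p = 0.0331) or OO 4 (1.77, adjusted p = 0.0250). SFO over chow was -0.68 ± 0.42 (adjusted p = 0.804) and CSO over chow 0.15 ± 0.39 (adjusted p = 0.9996), so the receptor chain passed the test in no comparison.

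Il6st, the gp130 chain shared by several cytokines of the family, was at 119.9 to 215.7 CPM in CSO (median 144.8) and at 120.9, 104.5, 179.3, 231.6 and 201.1 CPM in SFO 1, 2, 3, 5 and 6. The OO range was 77 to 310.6 CPM (median 129.6) and the chow range 98.7 to 171.7 CPM (median 130.6). All ranges overlapped, and OO held both the lowest library, OO 2, and the highest, OO 1. No comparison passed: the log2 fold changes over chow were 0.27 ± 0.25 in CSO, 0.34 ± 0.26 in SFO and 0.24 ± 0.25 in OO. For SFO over chow the 95% interval was -0.17 to 0.85. Il1rap, the accessory chain of the interleukin-1 receptor, was at 187.2 to 275.2 CPM in CSO (median 217.1) and at 173.3, 195.9, 210.4, 178.5 and 257.6 CPM in SFO 1, 2, 3, 5 and 6. OO libraries ran from 214.8 to 305.3 CPM (median 242.3) and chow libraries from 145.3 to 230.6 CPM (median 202.3). All 6 OO libraries were above the chow mean and 4 of 6 above every chow library, yet the difference of 0.34 ± 0.16 had an adjusted p of 0.257. For SFO over chow it was 0.06 ± 0.16.

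Stat3, the transcription factor through which gp130 acts, was at 107.0 to 174.9 CPM in CSO (median 140.7) and at 285.4, 156.3, 235.5, 337.7 and 136.7 CPM in SFO 1, 2, 3, 5 and 6. The OO range was 105.0 to 198.2 CPM (median 154.8) and the chow range 92.6 to 141.2 CPM (median 109.6). Libraries SFO 1, 3 and 5 were above every library of the other diets, SFO 2 was above every chow library, and SFO 6 lay within the chow range. SFO averaged 230.3 ± 84.9 CPM (n = 5) and chow 113.9 ± 17.8 CPM (SD, n = 6), a log2 fold change of 1.02 ± 0.21 (adjusted p = 0.00477) with 5 of 5 SFO libraries above the chow mean. Without SFO 5 it was 0.84 (adjusted p = 0.0666), and it was 1.08 (adjusted p = 0.104) without the 4 libraries with muscle transcripts. CSO over chow was 0.30 ± 0.20 (adjusted p = 0.9996) and OO over chow 0.42 ± 0.20 (adjusted p = 0.295), neither past the threshold. CSO was below SFO by -0.72 ± 0.21 on the log2 scale, with all 6 CSO libraries below the SFO mean, at an adjusted p of 0.143. That comparison passed without SFO 6 (-0.86, adjusted p = 0.0405). SFO over OO was 0.60 ± 0.21 (adjusted p = 0.147).

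Cebpb, a C/EBP factor that acts with STAT3 on acute phase promoters, was at 11.6 to 81.7 CPM in CSO (median 39.2) and at 56.0, 36.6, 38.1, 57.1 and 84.7 CPM in SFO 1, 2, 3, 5 and 6. OO libraries ran from 3.93 to 51.2 CPM (median 23.7) and chow libraries from 25.02 to 53.6 CPM (median 32.5). All 5 SFO libraries were above the chow mean, but 2 of them lay inside the chow range. SFO over chow was 0.66 ± 0.41 (adjusted p = 0.804), and SFO over OO was 1.10 ± 0.41 (adjusted p = 0.172). Cebpd, the family member that is induced fast in acute inflammation, was a low-count gene, at 1.99 to 18.5 CPM in CSO (median 14.9) and at 8.33, 13.8, 15.2, 1.27 and 6.44 CPM in SFO 1, 2, 3, 5 and 6. The OO range was 0 to 8.71 CPM (median 2.26) and the chow range 3.44 to 31.4 CPM (median 11.4). In OO 1, OO 3 and OO 4 the gene had 1, 1 and 0 counts, and all 6 OO libraries were below the chow mean. The log2 fold change of OO over chow was -1.81 ± 0.83 (adjusted p = 0.263) and of CSO over OO 1.87 ± 0.83 (adjusted p = 0.271). Neither difference was called.

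Socs3, the inhibitor of gp130 signalling that STAT3 induces, was at 8.49 to 25.6 CPM in CSO (median 14.8) and at 28.0, 53.7, 13.0, 36.5 and 5.31 CPM in SFO 1, 2, 3, 5 and 6. In OO it ran from 3.42 to 26.6 CPM (median 11.1) and in chow from 4.48 to 24.5 CPM (median 9.95). Libraries SFO 1, 2 and 5 were above every chow library, and SFO 6 was near the bottom of the chow range. The log2 fold change of SFO over chow was 1.25 ± 0.55 with a 95% interval of 0.18 to 2.32, and the adjusted p was 0.515. CSO over chow was 0.49 ± 0.52 and OO over chow 0.14 ± 0.52, and the gene passed in no comparison.

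Serpina3n, a secreted serine protease inhibitor that is abundant in inflamed mouse tissue, was at 307.0 to 457.3 CPM in CSO (median 428.9) and at 1047, 354.6, 789.7, 885.1 and 446.0 CPM in SFO 1, 2, 3, 5 and 6. The OO range was 299.7 to 479.0 CPM (median 424.0) and the chow range 166.0 to 258.2 CPM (median 246.5). Every library of each oil diet was above every chow library, and SFO 1, 3 and 5 were above every library of the other diets. Of all tested genes, 0.86% in CSO, 0.677% in SFO and 0.977% in OO lay above chow with no overlap. Over chow the log2 fold change was 0.78 ± 0.18 in CSO (adjusted p = 0.0331), 1.60 ± 0.19 in SFO (adjusted p = 1.96e-07) and 0.80 ± 0.18 in OO (adjusted p = 0.0108). SFO exceeded OO by 0.80 ± 0.19 (adjusted p = 0.0265), and CSO was below SFO at -0.82 ± 0.19 (adjusted p = 0.0218), while CSO over OO was -0.02 ± 0.18 with a 95% interval of -0.37 to 0.33.

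The SFO call for Serpina3n against chow was kept with each library left out in turn, and also (adjusted p = 0.000423) without the 4 libraries with muscle transcripts. Without those 4 libraries the OO fold change over chow was 0.70 (adjusted p = 0.222) and the CSO one 0.65 (adjusted p = 0.777), both still positive and no longer called. The CSO call also went with any 1 of 9 libraries left out, chow 1, 2, 3, 4 and 6 and CSO 1, 2, 3 and 4, at fold changes from 0.70 to 0.80 and adjusted p-values of up to 0.108. The difference between CSO and SFO missed the threshold without CSO 5, CSO 6, SFO 1, SFO 3 or SFO 5, with adjusted p-values of 0.0793, 0.0821, 0.206, 0.0588 and 0.128. That between SFO and OO missed it without SFO 1, SFO 3, SFO 5 or OO 3, with adjusted p-values of 0.112, 0.0606, 0.0815 and 0.0541. With library totals in place of TMM factors the OO fold change over chow was 0.62 (adjusted p = 0.0678). Limma voom called Serpina3n neither for OO against chow nor for SFO against OO. With only the 2 diets fitted it was not called for SFO against OO or CSO against SFO. The last call also went with the replicate number as a block. Serpina3n belongs to a cluster of near-identical genes, so its counts may include or lose tags of its paralogs.

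Lbp, the lipopolysaccharide-binding protein that presents bacterial lipid to CD14, was at 42.5 to 84.5 CPM in CSO (median 67.6) and at 228.2, 161.8, 187.4, 209.7 and 59.1 CPM in SFO 1, 2, 3, 5 and 6. In OO it ran from 63.4 to 162.8 CPM (median 124.2) and in chow from 45.6 to 144.5 CPM (median 86.5). SFO 1, 2, 3 and 5 were above every CSO and every chow library, and SFO 6 fell inside both ranges. CSO averaged 67.0 ± 14.5 CPM (n = 6) and SFO 169.2 ± 66.4 CPM (SD, n = 5), a log2 fold change of -1.34 ± 0.28 (adjusted p = 0.00757). That call was kept with each library left out in turn. SFO over chow was 0.86 ± 0.28 (adjusted p = 0.201), and it passed without SFO 6 (1.08, adjusted p = 0.0250). CSO over chow was -0.48 ± 0.26 (adjusted p = 0.9996), with all 6 CSO libraries below the chow mean, and CSO over OO was -0.77 ± 0.27 (adjusted p = 0.136).

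Hp, haptoglobin, the plasma protein that captures free haemoglobin, was at 2922 to 3383 CPM in CSO (median 3267) and at 7981, 4306, 5731, 6273 and 2619 CPM in SFO 1, 2, 3, 5 and 6. The OO range was 2263 to 4390 CPM (median 3508) and the chow range 1982 to 2406 CPM (median 2076). Every CSO and every SFO library was above every chow library, 5 of 6 OO libraries were, and the CSO libraries lay within 1.16-fold of each other. Over chow the log2 fold change was 0.60 ± 0.18 in CSO (adjusted p = 0.237), 1.35 ± 0.19 in SFO (adjusted p = 0.000135) and 0.65 ± 0.18 in OO (adjusted p = 0.0496). In the authors' deposited table Hp passed in all 3 comparisons, with adjusted p-values of 0.0431 for CSO, 1.87e-10 for SFO and 0.0118 for OO. With only the CSO and chow libraries fitted, the CSO fold change was 0.60 with an adjusted p of 1.05e-05. CSO was below SFO at -0.74 ± 0.19 (adjusted p = 0.0730), and SFO exceeded OO by 0.70 ± 0.19 (adjusted p = 0.0608).

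The SFO call for Hp against chow was kept with each library left out in turn, and also (adjusted p = 0.0130) without the 4 libraries with muscle transcripts. The OO call went without any of the 6 chow libraries or without OO 1, 2, 3 or 6, at fold changes from 0.55 to 0.69 and adjusted p-values from 0.0598 to 0.0988. Without the 4 libraries with muscle transcripts it was 0.69 (adjusted p = 0.307), and with library totals in place of TMM factors 0.45 (adjusted p = 0.240). The OO call also went with limma voom, with no filter, with a filter of 10 counts in 5 libraries and with the replicate number as a block. Without SFO 6, the lowest SFO library, Hp passed in CSO against SFO (-0.92, adjusted p = 3.07e-05) and in SFO against OO (0.87, adjusted p = 0.000220). Without OO 2, SFO against OO passed at 0.81 (adjusted p = 0.0395).

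**Figure D2:**
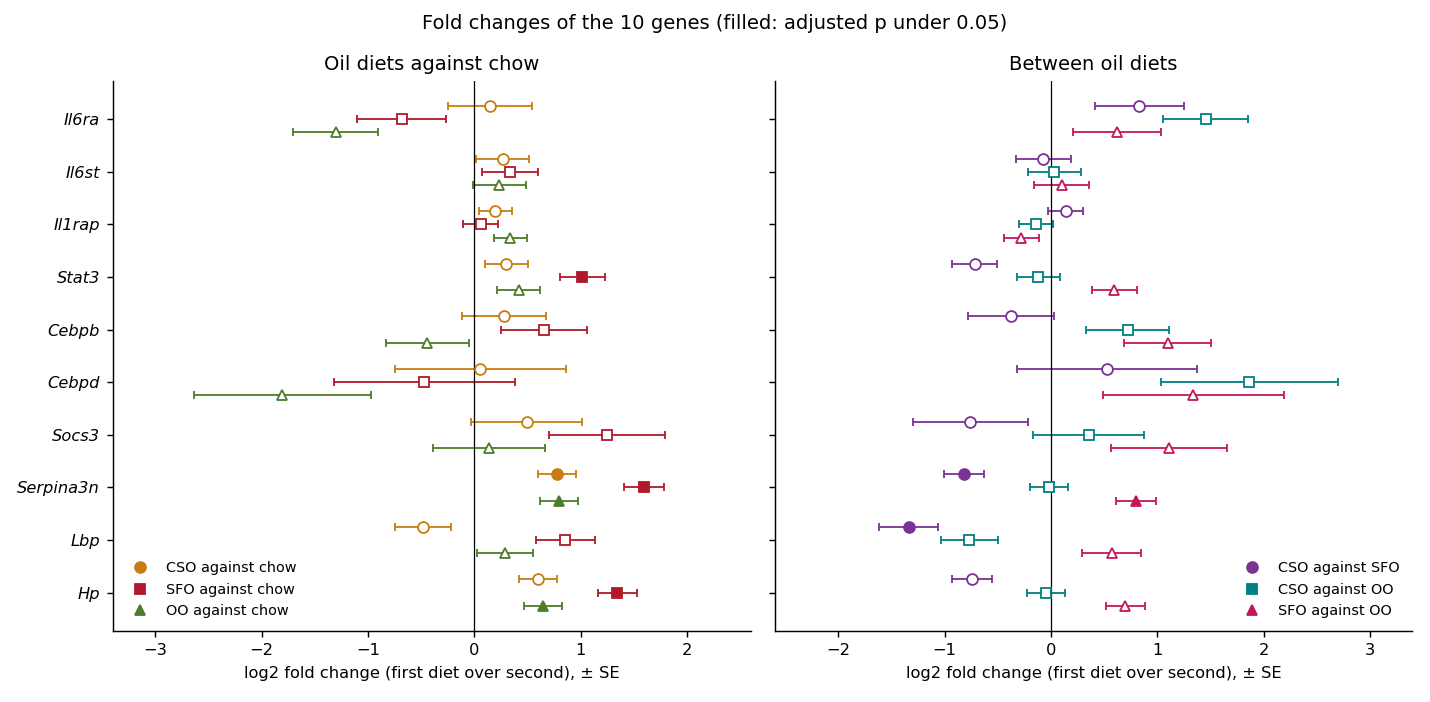
Log2 fold changes ± SE of the 10 genes from edgeR's quasi-likelihood test, for the oil diets against chow (left) and between the oil diets (right), with filled symbols at an adjusted p under 0.05. Serpina3n is filled in 5 of the 6 comparisons, Hp for SFO and OO against chow, Stat3 for SFO against chow and Lbp for CSO against SFO.

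The SFO libraries differed among themselves more than those of the other diets in the secreted proteins and Stat3. For Hp the highest SFO library was 3.05 times the lowest, beside 1.16 times in CSO, 1.94 times in OO and 1.21 times in chow. For Serpina3n the same ratio was 2.95 in SFO, 1.49 in CSO, 1.60 in OO and 1.56 in chow. For Lbp it was 3.86 in SFO, 1.99 in CSO, 2.57 in OO and 3.17 in chow. For Hp and Lbp the SFO ratios rest much on SFO 6, at 2619 and 59.1 CPM, where SFO 2, the next lowest, was at 4306 and 161.8 CPM. Hp and Lbp ranked the SFO libraries alike, SFO 1 highest, then 5, 3 and 2, and SFO 6 lowest, and Stat3 and Serpina3n also had SFO 1, 3 and 5 on top. These spreads were not tested. Cebpb ran otherwise, highest in SFO 6 at 84.7 CPM, and Socs3 was highest in SFO 2 at 53.7 CPM. SFO 6, low for Hp, Lbp and Stat3, had 312.2 CPM of summed macrophage and Kupffer cell markers, the most among SFO libraries, and 60.3 CPM of summed muscle markers. It also had the lowest total of all libraries, 5428649 counts, and the highest hepatocyte marker sum among SFO libraries, 140500 CPM. In SFO most of the hepatocyte sum was Alb, at a mean of 99197 CPM, which is also in the list of negative acute phase proteins below. The part of any of these in the levels was not tested.

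**Figure D3:**
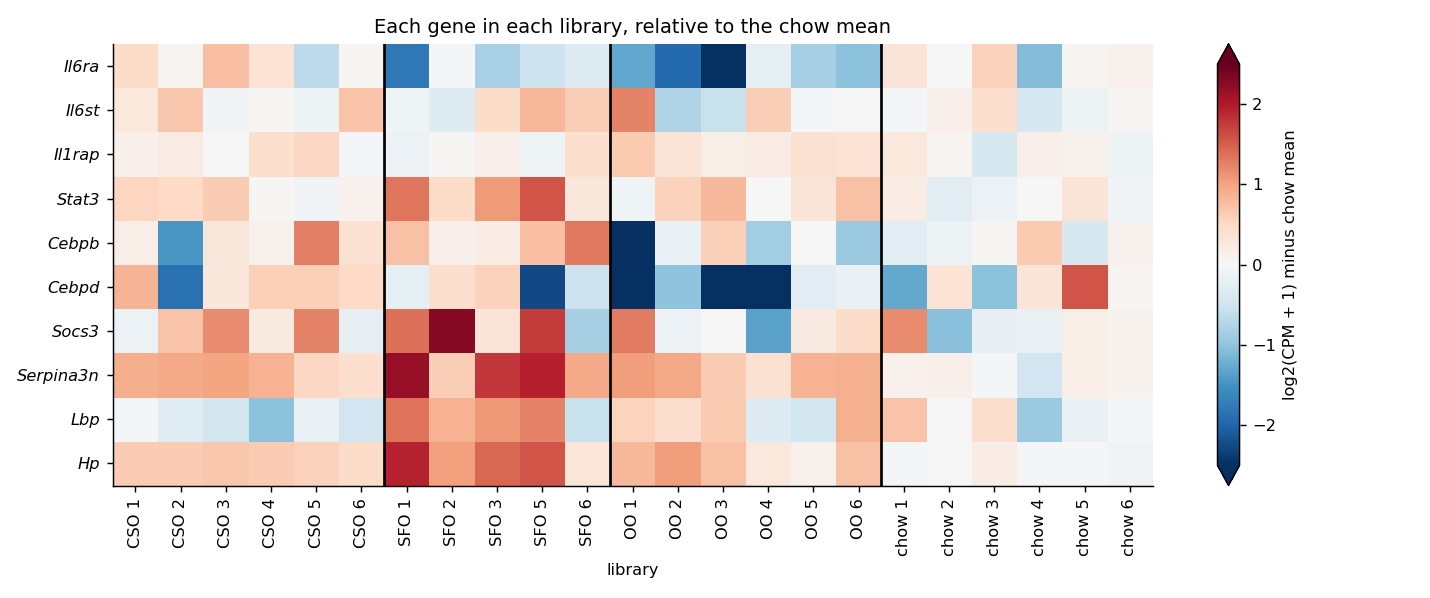
Level of each gene in each library as log2(CPM + 1) minus its chow mean (red higher, blue lower), with libraries grouped as CSO, SFO, OO and chow. SFO 1, 3 and 5 are red for Stat3, Serpina3n, Lbp and Hp, OO libraries are blue for Il6ra, and OO 1, OO 3 and OO 4 are at the dark blue end for Cebpd, at 1, 1 and 0 counts.

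Within diets, after subtraction of each diet's mean log2 CPM, Stat3 was set against the other 9 genes over the 23 libraries, with permutation tests that shuffled libraries within diets 100000 times (two-sided). Serpina3n had Pearson r = 0.633 (permutation p = 0.0205) and Spearman rho = 0.560 (permutation p = 0.0316). Lbp had r = 0.534 (permutation p = 0.0218) and rho = 0.510 (permutation p = 0.0222), and Hp had r = 0.613 (permutation p = 0.0278) and rho = 0.525 (permutation p = 0.0444). Adjusted over the 9 relations these 3 genes each reached 0.0833 for r and 0.133 for rho, so no relation passed. Without SFO 5 and SFO 6, the libraries farthest from the median of Stat3, r was 0.5255 for Serpina3n, 0.359 for Lbp and 0.446 for Hp. Over the 18 libraries of the other diets it was 0.299, 0.330 and 0.276, so much of the relation rests on the SFO libraries. Socs3 had r = 0.294 (permutation p = 0.288) and rho = 0.263 (permutation p = 0.301), with r = 0.0349 once SFO 5 and SFO 6 were left out. The 3 receptor genes ran the other way: Il1rap had r = -0.437 (permutation p = 0.0520, adjusted 0.117) and rho = -0.426 (permutation p = 0.0644), and without SFO 5 and SFO 6 its r was -0.282. Il6ra had r = -0.333 (permutation p = 0.169) and rho = -0.294 (permutation p = 0.234), and Il6st r = -0.282 (permutation p = 0.267) and rho = -0.292 (permutation p = 0.258). Over the 18 libraries of the other diets r was -0.270 for Il1rap, -0.286 for Il6ra and -0.546 for Il6st.

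**Figure D4:**
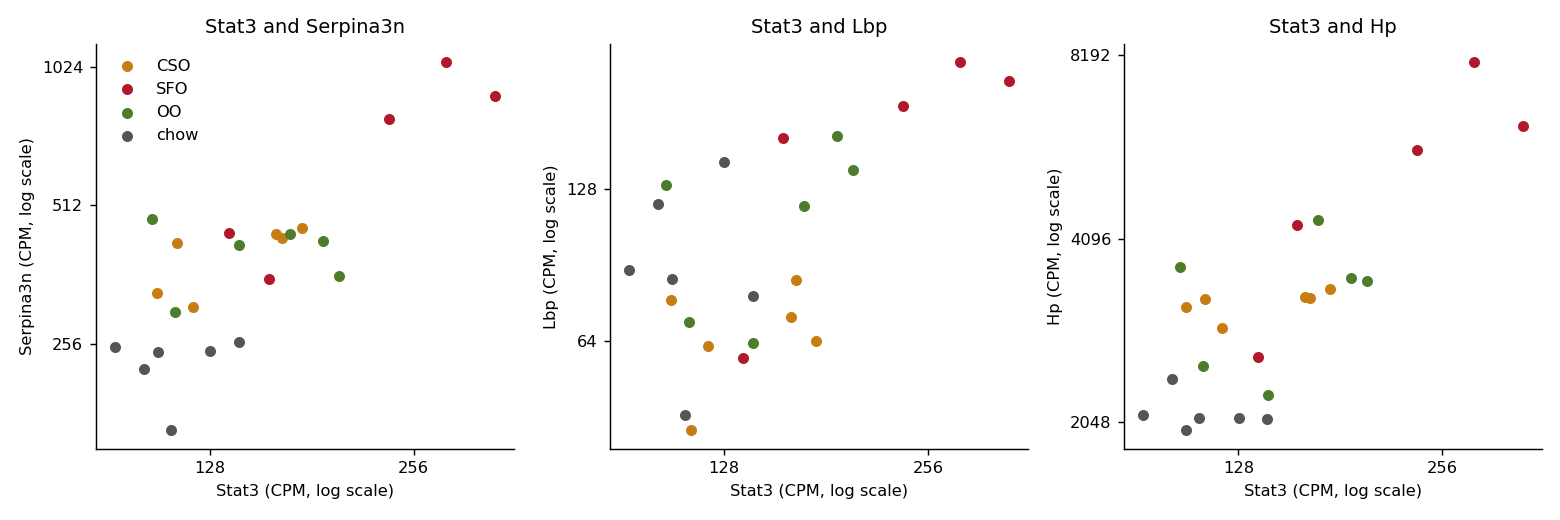
Stat3 level on the x axis against Serpina3n, Lbp and Hp on the y axes (CPM, log axes), 1 point a library coloured by diet. SFO 1, 3 and 5 lie at the upper right of all 3 panels, apart from the other 20 libraries, and chow libraries lie at the lower left for Serpina3n and Hp.

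Promoter sequences, 250 bases before to 50 after the start site in RefSeq on GRCm38.p6, were matched for 7 of the 10 genes, and Cebpd, Lbp and Hp are named only. The palindromic STAT motif TTCNNNGAA, searched on both strands, was found in 1 of the 7, Socs3, where TTCTTAGAA starts at position -154 from the start site. It is in 8.298% of all 32851 promoter windows of 300 bases. The type 2 interleukin-6 element CTGGGAA, in 11.14% of windows, and the C/EBP motif TTGCNNAA, in 10.8%, were in none of the 7, which says only that these letters are not in these windows. A match is a description of letters, not of binding. The stretch from -250 to -101 is printed for Socs3, which holds the motif (in capitals), and for Stat3 and Serpina3n, the genes of the 7 that were called in any comparison.
Socs3, chr11:117969467-117969616, minus strand: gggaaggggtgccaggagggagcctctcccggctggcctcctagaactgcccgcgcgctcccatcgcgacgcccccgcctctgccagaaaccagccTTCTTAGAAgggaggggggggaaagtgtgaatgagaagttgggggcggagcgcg
Stat3, chr11:100939641-100939790, minus strand: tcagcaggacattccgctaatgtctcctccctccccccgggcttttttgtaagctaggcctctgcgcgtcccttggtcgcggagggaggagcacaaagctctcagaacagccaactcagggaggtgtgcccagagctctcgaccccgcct
Serpina3n, chr12:104406458-104406607, plus strand: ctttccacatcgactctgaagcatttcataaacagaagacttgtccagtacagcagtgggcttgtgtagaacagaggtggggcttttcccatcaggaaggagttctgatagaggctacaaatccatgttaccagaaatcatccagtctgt

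The other genes of the pathway were followed in 4 lists, described by counts of calls and medians. Of 24 measured cytokines, receptors and kinases, 23 were tested, and edgeR called 0 in each of the 6 comparisons. At an unadjusted p under 0.05 there were 3 for CSO, 3 for SFO and 1 for OO against chow, 6 for CSO against SFO, 3 for CSO against OO and 0 for SFO against OO. DESeq2 called 2 for CSO against SFO, where limma voom called 1, and DESeq2 called 1 for CSO against OO. Jak1, the kinase bound to gp130, averaged 139.8 ± 37.1 CPM in CSO, 156.4 ± 30.3 CPM in SFO, 166.6 ± 46.9 CPM in OO and 136.3 ± 19.6 CPM in chow. Il1b, the gene of interleukin-1 beta, chosen after its values were seen and not called, was at 0 to 7.78 CPM in SFO (median 5.20) and at 0 to 2.57 CPM in chow (median 0.0938). Il6, Il11, Osm, Lif and Tnf are not among the genes of the count table, so they were not analysed here.

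Of 24 genes listed as negative feedback genes or early response targets of STAT3, all tested, edgeR called 0 for CSO and 0 for SFO against chow and 2 for OO. For CSO, SFO and OO, 0.209%, 0.493% and 1.72% of all genes were called higher and 0.2%, 0.342% and 0.919% lower. The list mixes target genes with regulators, among them Pias1, Pias3, Ptpn1, Ptpn2 and Ptpn6, so its counts do not measure STAT3 output. At an unadjusted p under 0.05 there were 0 for CSO, 4 for SFO and 5 for OO, while DESeq2 called 0, 1 and 3 and limma voom 0 in each. Irf1, an interferon-regulated transcription factor, was higher in OO at 54.1 ± 26.1 CPM, against 23.8 ± 8.57 CPM in chow (log2 fold change 1.18 ± 0.33, adjusted p = 0.0369). Pim3, a serine/threonine kinase of the Pim family, was lower in OO at 44.8 ± 18.5 CPM, against 84.6 ± 25.7 CPM in chow (-0.92 ± 0.25, adjusted p = 0.0383). Without the 4 libraries with muscle transcripts Irf1 was at 1.36 (adjusted p = 0.208) and Pim3 at -0.84 (adjusted p = 0.348), and neither passed with limma voom (adjusted p = 0.112 and 0.146) or with only the 2 diets fitted (adjusted p = 0.122 and 0.155). Irf1 also missed it without chow 1, 2, 3, 5 or 6 or OO 2 or 6, with fold changes of 0.92 to 1.39 over all single omissions and adjusted p-values of up to 0.113. Pim3 missed it without chow 3, 4, 5 or 6 or OO 1, 3 or 6, with fold changes of -1.06 to -0.77 and adjusted p-values of up to 0.114. Pim3 was also higher in CSO than in OO (1.02 ± 0.25, adjusted p = 0.0312) and in SFO than in OO (1.06 ± 0.26, adjusted p = 0.0324). Neither call was made by limma voom (adjusted p = 0.0910 and 0.183) or with only the 2 diets fitted (adjusted p = 0.111 and 0.301). The first also went without CSO 1, 4, 5 or 6 or OO 1, 3 or 6 (adjusted p up to 0.101) and the second without SFO 1, 2, 3 or 5 or OO 1, 3 or 6 (adjusted p up to 0.0800). Without the 4 libraries with muscle transcripts Pim3 was at 1.04 in CSO against OO (adjusted p = 0.108), no longer called. The list's median log2 fold change was -0.06 for CSO, 0.20 for SFO and 0.10 for OO against chow. Between the oils, 0 were called for CSO against SFO, 5 at an unadjusted p under 0.05 and 0 by DESeq2 and by limma voom.

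Of 32 other acute phase proteins, all tested, 15 were higher in SFO than in chow and 0 lower, where 0.493% and 0.342% of all genes were. In that comparison 31 of 32 had a positive log2 fold change (median 1.03, against 0.01 over all genes). The 15 were the serum amyloids Saa1, Saa2 and Saa4, the fibrinogen chains Fga, Fgb and Fgg, the haem-binding Hpx, the siderophore-binding Lcn2, Itih3, Itih4, Apcs, C4b, Fgl1, Lrg1 and Steap4. Fgg averaged 7579 ± 2044 CPM in SFO and 3939 ± 389 CPM in chow (log2 fold change 0.94 ± 0.12, adjusted p = 1.64e-06). Itih3, a hyaluronan-binding chain, averaged 1473 ± 445 CPM in SFO and 678 ± 85.3 CPM in chow (1.12 ± 0.17, adjusted p = 0.000135). Fgb rose by 0.94 ± 0.12 (adjusted p = 2.40e-06) and Fga by 0.86 ± 0.14 (adjusted p = 0.000413). Without the 4 libraries with muscle transcripts 5 of these 15 were called, Fgb, Fgg, Itih3, Lcn2 and Lrg1, where 0.275% of all genes were. All 15 kept their positive sign, at 86.6% to 167% of the log2 fold change given by all libraries, and Fga was at 0.75 (adjusted p = 0.0556). SFO 6 held the lowest SFO value for 21 of the 32 genes and SFO 2 for 9, while SFO 1 held the highest for 14 and SFO 3 for 13. Above every chow library were 28 of the 32 in SFO 1, 26 in SFO 3, 24 in SFO 5, 18 in SFO 2 and 11 in SFO 6. The share of all genes above every chow library in a single SFO library was not counted, so these counts lack a baseline. Saa2 was at 276.8, 42.5, 357.8, 225.0 and 12.9 CPM in SFO 1, 2, 3, 5 and 6, against 0.469 to 11.4 CPM in chow (median 2.69). Saa1 and Saa2 share sequence, so their separate counts are uncertain.

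The same list gave 7 calls for OO against chow, 6 higher and 1 lower (median 0.42, against 0.07 over all genes). In that comparison 1.72% of all genes were called higher and 0.919% lower. C4b, complement C4, averaged 1798 ± 420 CPM in OO and 1071 ± 117 CPM in chow (0.75 ± 0.12, adjusted p = 0.000185). Apcs, serum amyloid P, rose by 1.28 ± 0.29 (adjusted p = 0.0112), Itih4 by 0.68 ± 0.15 (adjusted p = 0.00971) and Fgb by 0.49 ± 0.12 (adjusted p = 0.0184). Fgg and Itih3 were also higher, and Ftl1, the ferritin light chain, was lower. Without the 4 libraries with muscle transcripts 0 of the 32 were called, where 0.21% of all genes were, and all 7 kept their sign at 76.6% to 104% of the log2 fold change given by all libraries. C4b was then at 0.67 (adjusted p = 0.0544), Apcs at 1.14 (adjusted p = 0.243), Itih4 at 0.60 (adjusted p = 0.197) and Fgb at 0.38 (adjusted p = 0.373). Apcs also missed the threshold without OO 3 (adjusted p = 0.0612), and Fgb without chow 4 or chow 5 (adjusted p up to 0.0543). With library totals in place of TMM factors 3 were called and with limma voom 1, and with single libraries left out the count ran from 3, without chow 4 or chow 5, to 9, without OO 5.

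For CSO against chow edgeR called 0 of the 32 (median 0.07, against -0.02 over all genes), where 0.209% of all genes were called higher and 0.2% lower. At an unadjusted p under 0.05 there were 5, and DESeq2 and limma voom each called 2. CSO was lower than SFO in 7 of the 32 and higher in 0 (median -0.82), where 0.209% of all genes were called lower. Among the 7 were Fgg (-0.998 ± 0.12, adjusted p = 2.69e-06), Fgb (-0.87 ± 0.12, adjusted p = 4.04e-05), Fga (-0.88 ± 0.14, adjusted p = 0.000565) and Itih3 (-0.80 ± 0.17, adjusted p = 0.0171). Saa1, Saa2 and Mt2, a metallothionein, were the other 3. The difference in Itih3 missed the threshold without CSO 5, CSO 6, SFO 1 or SFO 5 (adjusted p up to 0.102). For CSO against OO edgeR called 1 of the 32, Fgg, lower in CSO (-0.52 ± 0.12, adjusted p = 0.0154), where 1.09% of all genes were called in either direction. There were 11 at an unadjusted p under 0.05, 2 called by DESeq2, 0 by limma voom and 0 to 4 with single libraries left out. SFO was higher than OO in 6 of the 32, where 0.267% of all genes were called higher. Mt2 averaged 64.9 ± 66.1 CPM in SFO and 3.4 ± 3.14 CPM in OO (4.25 ± 0.86, adjusted p = 0.0149), and Steap4, a metalloreductase, averaged 448.1 ± 264.2 CPM in SFO and 156.0 ± 55.1 CPM in OO (1.52 ± 0.34, adjusted p = 0.0312). Saa2 (4.24 ± 0.95, adjusted p = 0.0347), Fgg (0.48 ± 0.12, adjusted p = 0.0372), Saa1 and Orm2 were the others. Mt2 missed the threshold without OO 3 (adjusted p = 0.0541) and Steap4 without OO 2, 3 or 4 or SFO 1 or 5 (adjusted p up to 0.0762). Saa2 missed it without OO 2, 3, 4 or 6 or SFO 1, 3 or 5 (adjusted p up to 0.0762), and Fgg without OO 2, 3, 4 or 5 or SFO 1, 3 or 5 (adjusted p up to 0.156). With single libraries left out the count ran from 3 to 14 for CSO against SFO and from 1 to 15 for SFO against OO, both highest without SFO 6. The lowest was without CSO 5 or CSO 6 for CSO against SFO, and without OO 3, OO 4, SFO 1 or SFO 5 for SFO against OO, where limma voom called 0 and DESeq2 11. Fgg in CSO against OO missed the threshold without CSO 4, CSO 6 or OO 1 (adjusted p up to 0.0587).

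The 11 genes listed as negative acute phase proteins, whose plasma products are known to fall in inflammation, gave few calls and none lower against chow. Over all genes 0.2% in CSO, 0.342% in SFO and 0.919% in OO were called lower than chow, and 0.209%, 0.493% and 1.72% higher. Rbp4, the retinol carrier, was higher in CSO than in chow (0.55 ± 0.12, adjusted p = 0.0145), Mup20, a major urinary protein, in SFO (0.76 ± 0.18, adjusted p = 0.0303) and Serpina7, the thyroxine-binding globulin, in OO (2.0 ± 0.42, adjusted p = 0.0112). The direction of these 3 is opposite to the name of the list. Without the 4 libraries with muscle transcripts Rbp4 was at 0.58 (adjusted p = 0.248) and Mup20 at 0.62 (adjusted p = 0.695), no longer called, and Serpina7 passed (2.58, adjusted p = 0.00684). The Rbp4 call also went without chow 3 or CSO 4, 5 or 6 (adjusted p up to 0.0921). The Mup20 call went without 8 of the 11 libraries left out singly, chow 2, 3, 4, 5 and 6 and SFO 1, 2 and 5 (adjusted p up to 0.0955), and with library totals (adjusted p = 0.154), limma voom (adjusted p = 0.117) or no filter (adjusted p = 0.0520). Trf, transferrin, was lower in CSO than in OO (-0.38 ± 0.10, adjusted p = 0.0312), a call lost without CSO 1, 4 or 6 or OO 1 or 3 (adjusted p up to 0.104), with library totals (-0.22, adjusted p = 0.180) and with limma voom (-0.37, adjusted p = 0.208). Without the 4 libraries with muscle transcripts Trf was at -0.35 in CSO against OO (adjusted p = 0.120), also not called. SFO against OO had Mup20 higher (0.89 ± 0.18, adjusted p = 0.0149) and Serpina7 lower (-1.87 ± 0.44, adjusted p = 0.0366). The second of these was lost without OO 2 or 3 or SFO 1, 2, 3, 5 or 6 (adjusted p up to 0.09999), with library totals (adjusted p = 0.0763) and with limma voom (adjusted p = 0.359), and limma voom did not call Mup20 either (adjusted p = 0.307). Mup genes share sequence, so the separate count of Mup20 is uncertain.

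**Figure D5:**
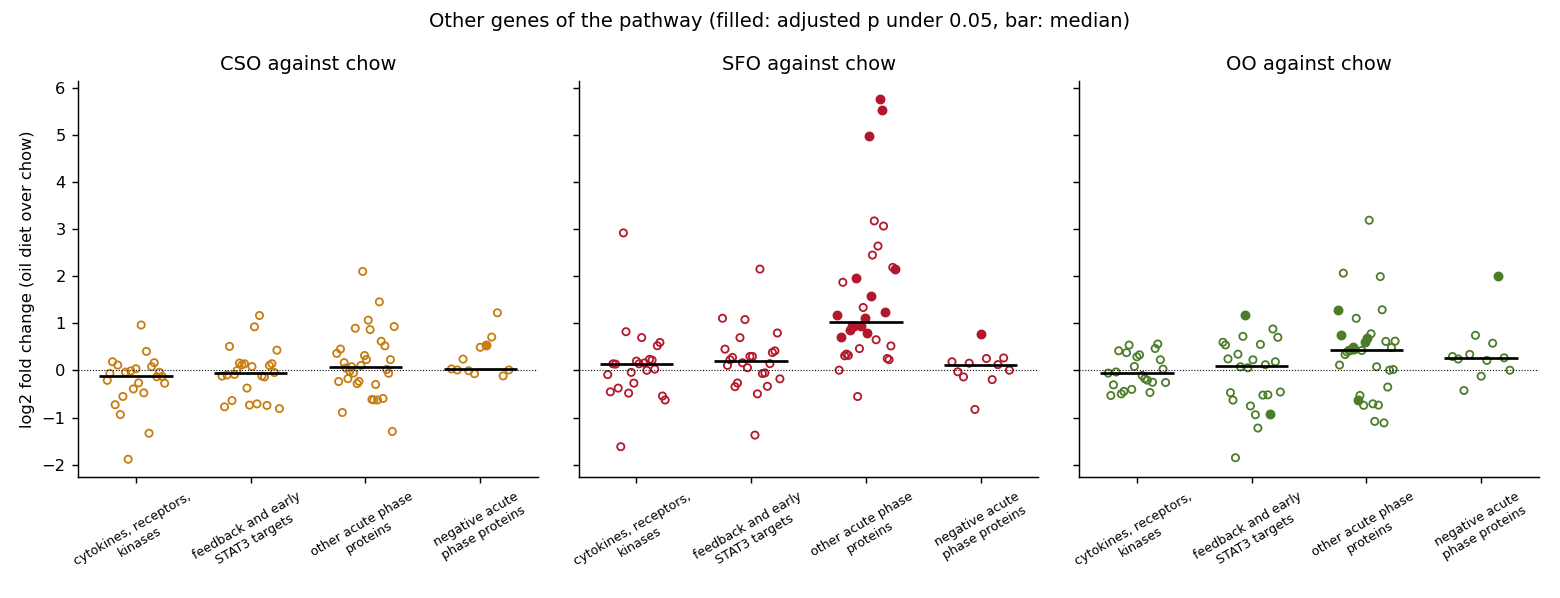
Log2 fold changes over chow of the tested genes in the 4 pathway lists (23, 24, 32 and 11 genes), for CSO (left), SFO (middle) and OO (right), with filled points at an adjusted p under 0.05 and bars at the median of each list. In SFO 15 of the 32 other acute phase proteins are filled, all above 0, and the bar is at 1.03, while 0 of that list are filled in CSO.

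Genes whose pattern was most like that of the 10 were found by the Pearson correlation of their log2 CPM with the mean z-score of the 10 over the 23 libraries, among 5687 genes whose log2 CPM averaged 4 or more. The 5 highest were Lrg1 (r = 0.898), Fgl1 (r = 0.850), Itih3 (r = 0.818), Steap4 (r = 0.818) and Fndc3b (r = 0.770), a description over libraries that share their diets. With each diet's mean subtracted, r was 0.828 for Lrg1, 0.815 for Fgl1, 0.764 for Itih3, 0.479 for Steap4 and 0.503 for Fndc3b. Lrg1, a leucine-rich secreted glycoprotein, averaged 524.3 ± 108.3 CPM in CSO, 859.5 ± 315.8 CPM in SFO, 493.1 ± 174.4 CPM in OO and 287.4 ± 54.8 CPM in chow. It was higher in SFO than in chow (1.58 ± 0.24, adjusted p = 0.000413). Every CSO library was above every chow library, as for 0.86% of all tested genes, at an adjusted p of 0.119. Lrg1 was picked by its likeness to a mean that was itself higher in SFO than in chow. These differences are therefore not separate support. Of the 10 genes themselves, Serpina3n (r = 0.855), Hp (r = 0.818) and Stat3 (r = 0.753) followed the mean most closely, each being part of it, and Il1rap (r = -0.0466) and Il6ra (r = 0.0531) the least.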

How the data were processed

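Liver RNA of male mice on 4 diets was measured in 23 libraries. The authors deposited raw counts per gene and, for each oil diet, a table of log2 fold changes of chow over that diet with their errors, p-values before and after adjustment, and scores (the mean normalised count and the Wald statistic, named in the file headers), which were turned here to oil over chow. The submitters' processing notes name Trimmomatic, STAR 2.7.1a, HTSeq 0.9.1, DESeq2 and DESeq, with the genome build mm39. Whether counting used strand was not stated in the sources used here, so tags of antisense genes cannot be told apart.

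Counts were fitted in R 4.3.3 with edgeR 4.0.16 (filterByExpr, TMM factors, diet as the only term over all 23 libraries, robust quasi-likelihood F test, two-sided, Benjamini-Hochberg over 11971 genes, threshold 0.05), with limma 3.58.1 and DESeq2 1.42.0 as alternatives. The procedure was tested on simulated counts. CPM used TMM-scaled totals, and log2 CPM a prior count of 2. Tables and figures were made in Python 3.11.15 with pandas 2.3.3, scipy 1.17.1 and matplotlib 3.10.9. Of the symbols, 13407 matched the reference names, all 10 genes among them. Promoters are RefSeq's on GRCm38.p6, another build than that of the counts, and were matched by symbol only.

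The 10 genes, the lists and the tests were chosen with earlier results of these data known. Named from each list were the called genes with the smallest adjusted p, up to 4 a comparison, beside the 5 genes most like the 10. Other called genes are listed by name only. The alternatives were DESeq2's size factors, library totals, DESeq2's Wald test, limma voom with quality weights, no filter, a filter of 10 counts in 5 libraries, only the 2 diets compared, a replicate block, a minimum log2 fold change of 1 either way, and leaving out each library in turn. An alternative without the 4 libraries whose Acta1 exceeded 100 CPM was added after the data were seen.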

Additional observations from a re-analysis of the deposited data

Results flagged for a closer look

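Of the 40 combinations of a gene and a diet, 4 had 1 library set apart from the rest of its group by Dixon's test at the 95% level, where chance gives about 1 in 20, and all 4 were chow libraries. Socs3 was at 24.53 CPM in chow 1, and the next chow library was at 11.44 CPM. Cebpd was at 31.42 CPM in chow 5, with the next at 12.79 CPM. Serpina3n was at 166.0 CPM in chow 4, below the next lowest at 226.2 CPM. Hp was at 2406.0 CPM in chow 3, above the next at 2099.0 CPM. Chow 3, chow 4 and chow 5 are among the 4 libraries with muscle transcripts, and the part of these transcripts in the 3 levels was not tested. The SFO calls of Serpina3n and Hp over chow were kept without each of these libraries.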

How the results depend on the processing

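With 5 or 6 libraries a diet, differences in Cebpd, Socs3 and Il6ra were measured with wide intervals, and Cebpd had 0 or 1 count in 3 libraries. Leaving out the 4 libraries with muscle transcripts leaves 3 chow libraries. The count of called genes among the 10, 3 for SFO against chow, was 2 to 4 with single libraries left out and moved by no more than that otherwise. For CSO against chow it was 1, and became 2 with DESeq2 or with only the 2 diets, 0 without the 4 libraries, 0 where a log2 fold change of 1 or more either way was required, and 0 to 1 with single libraries left out. For OO against chow it was 2, and became 3 with DESeq2, 2 higher and 1 lower, Il6ra. It became 0 with library totals, 0 with limma voom, 1 with no filter, 1 with the filter of 10 counts in 5 libraries, 0 without the 4 libraries, 0 at that size, and 1 to 3 with single libraries left out. For CSO against OO it was 0, and became 1 with DESeq2, 1 with limma voom and 0 to 1 with single libraries left out. For CSO against SFO it was 2, and became 4 with DESeq2, 4 with limma voom, 1 with only the 2 diets, 1 at that size and 1 to 4 with single libraries left out. For SFO against OO it was 1, and became 2 with library totals, 2 with DESeq2, 0 with limma voom, 0 with only the 2 diets, 0 at that size and 0 to 2 with single libraries left out. The cause of these shifts was not tested.

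Over all tested genes, same-numbered libraries did not deviate together (33 pairs, correlations from -0.101 to 0.0346, 0 over 0.1). These correlations cannot exclude a factor shared by same-numbered samples that acts on some genes only. With the replicate block the count was 1 for OO against chow and 1 for CSO against SFO, and it was as reported in the other 4 comparisons.

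Signs turned only in fold changes that had not been called. Library totals moved the all-gene median of OO against chow to -0.12, of CSO against OO to 0.08 and of SFO against OO to 0.08. With them the log2 fold change was -0.043 for Socs3 in OO against chow and -0.0022 for Il1rap in SFO against chow. In CSO against OO it was 0.050 for Stat3, 0.0098 for Il1rap, 0.14 for Serpina3n and 0.13 for Hp with library totals, and 0.012 for Stat3, 0.024 for Serpina3n and 0.10 for Hp with limma voom. Without the 4 libraries it was -0.074 for Socs3 in OO against chow and 0.035 for Cebpd in SFO against chow. With single libraries left out, ranges that crossed 0 were, in CSO against chow, -0.0019 to 0.28 for Il6ra, -0.024 to 0.48 for Cebpb and -0.14 to 0.58 for Cebpd. In OO against chow they were -0.082 to 0.38 for Il6st and -0.22 to 0.50 for Socs3, and in SFO against chow -0.74 to 0.063 for Cebpd and -0.038 to 0.12 for Il1rap. In CSO against OO they were -0.11 to 0.35 for Il6st, -0.092 to 0.045 for Serpina3n and -0.13 to 0.052 for Hp. For Il6st they were -0.21 to 0.075 in CSO against SFO and -0.046 to 0.42 in SFO against OO.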
